A study of Mus musculus with 10 samples.

Results

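Saa3, Slpi and Lcn2 are 3 secreted proteins of the acute phase and of antimicrobial defence, described here among 6795 named genes measured in mouse macrophages. They were chosen by symbol: each is the only symbol of 1 feature (a spotted cDNA) on the arrays, so each gene rests on 1 feature, out of 8905 genes and unnamed features tested. The choice was made with results of these data known. Saa3 and Slpi were picked from the comparison of untreated tumour-associated macrophages (TAM) with untreated peritoneal exudate cells (PEC), so their values in that comparison are given as a description and not as a test. Which values led to the choice of Lcn2 is not given in the sources used here, and its values in that comparison are likewise given with no test.

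The data are 10 competitive hybridisations, each with total RNA of 2 conditions on 1 array. Both populations came from C57/6N mice aged 8 weeks and were kept as adherent cells in culture. PEC are cells washed from the peritoneal cavity, from which adherence enriches macrophages, and TAM were taken from tumours 3 weeks after implantation. Each population was untreated or received lipopolysaccharide (LPS), the bacterial wall component sensed by Toll-like receptor 4, at 100 ng/mL for 4 hours. Untreated TAM were set against untreated PEC on 4 arrays (TAM-2R, TAM-3, TAM-8 and TAM-b). PEC with LPS were set against untreated PEC on 2 arrays (PEC1 and PEC2), TAM with LPS against untreated TAM on 2 (TAM-trial and TAM-16), and TAM with LPS against PEC with LPS on 2 (TAM1 and TAM7). The tumour type, how the TAM were purified beyond adherence, and whether RNA of several animals was pooled are not stated in the sources used here. No label ties the arrays of a comparison to separate animals or dishes. The p-values therefore measure only the spread between arrays, which may be technical.

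Every value below is a log2 ratio of the first condition named to the second. A ratio carries no level, so neither the abundance of these RNAs in any one condition nor the presence of macrophage markers in either population could be read from the files. No value was missing. Over all genes and features the array medians lay between -0.199 and 0.067, and arrays of 1 comparison correlated weakly with each other, with r between 0.036 and 0.329. Of the untreated arrays, TAM-b and TAM-8 correlated at 0.329, and every pair with TAM-2R or TAM-3 at 0.036 to 0.102. Across all 8905 genes and features, limma (Benjamini-Hochberg adjusted p below 0.05) called 41 in untreated TAM against PEC, or 0.46%, with 11 higher and 30 lower in TAM.

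SAA3 is a serum amyloid A protein that, unlike the liver forms of the family, is made in macrophages and fat, and it associates with high-density lipoprotein. SLPI, the secretory leukocyte protease inhibitor, blocks neutrophil elastase and cathepsin G, protects progranulin from cleavage by elastase, has antimicrobial activity and dampens NF-kB signalling in macrophages exposed to LPS. LCN2, or neutrophil gelatinase-associated lipocalin, is stored in neutrophil granules and is also made by activated macrophages and epithelia. It binds bacterial siderophores and so withholds iron from bacteria, and it forms a complex with the gelatinase MMP9. All 3 genes are textbook targets of the inflammatory response, in which NF-kB, C/EBP and STAT factors take part.

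The sequence before the annotated start of each gene is shown because the 3 genes are commonly grouped as targets of the same factors, and because it shows what they share that the choice of genes did not use. The sequences are those of RefSeq on GRCm38.p6, 250 bases each, ending at the base before the start, and all 3 genes lie on the minus strand. The windows are chr7:46715677-46715926 for Saa3, chr2:164356508-164356757 for Slpi and chr2:32387740-32387989 for Lcn2. Capitals mark the match to the C/EBP motif TTGCNNAA, searched on both strands.
Saa3: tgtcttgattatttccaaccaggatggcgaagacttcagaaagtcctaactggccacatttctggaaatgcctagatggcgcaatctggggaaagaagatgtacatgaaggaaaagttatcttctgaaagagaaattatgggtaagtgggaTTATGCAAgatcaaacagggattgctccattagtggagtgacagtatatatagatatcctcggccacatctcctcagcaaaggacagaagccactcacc
Slpi: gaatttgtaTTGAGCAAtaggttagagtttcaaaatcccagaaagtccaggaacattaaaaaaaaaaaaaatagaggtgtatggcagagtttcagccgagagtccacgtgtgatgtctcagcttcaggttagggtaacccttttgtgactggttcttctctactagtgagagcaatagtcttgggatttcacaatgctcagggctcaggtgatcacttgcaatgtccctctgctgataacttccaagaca
Lcn2: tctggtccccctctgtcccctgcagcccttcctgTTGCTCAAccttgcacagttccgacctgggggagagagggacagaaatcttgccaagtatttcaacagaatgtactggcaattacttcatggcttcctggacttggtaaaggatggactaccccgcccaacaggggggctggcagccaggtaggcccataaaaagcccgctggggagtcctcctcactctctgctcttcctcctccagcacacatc
Each of the 3 windows held 1 C/EBP match. It lay 99 to 92 bases before the start in Saa3, 241 to 234 bases before it in Slpi and 216 to 209 bases before it in Lcn2. Among 32851 promoter windows of the same table and length, 9.56% held this motif. No match to the STAT motif TTCNNNGAA, present in 7.02% of all windows, or to the NF-kB motif, present in 7.25%, was found in these 3 windows. The GC content was 43.2% for Saa3, 42.0% for Slpi and 56.4% for Lcn2. A match is a string of letters and not a shown binding site.

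In untreated cells, Saa3 and Slpi RNA was far lower in TAM than in PEC, whereas Lcn2 had no common sign. The Saa3 log2 ratio was -5.15 on TAM-b, -7.62 on TAM-2R, -7.00 on TAM-3 and -6.67 on TAM-8. All 4 arrays thus lay far below 0, from 35.6-fold lower on TAM-b to 196-fold lower on TAM-2R, with a mean of -6.61 ± 1.05 (SD, n = 4), or 97.7-fold lower. Of the 8905 genes and features Saa3 had the lowest mean, and on the single arrays it was the lowest on TAM-8, rank 4 from the lowest on TAM-b, rank 5 on TAM-2R and rank 10 on TAM-3. In bulk RNA of this kind, fewer cells that express a gene and less RNA per cell cannot be told apart.

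The Slpi log2 ratio was -2.12 on TAM-b, -6.05 on TAM-2R, -4.77 on TAM-3 and -4.30 on TAM-8. It was below 0 on every one of these arrays, least on TAM-b and most on TAM-2R, the same arrays that held the least and the most negative value of Saa3. The mean of -4.31 ± 1.64 (SD, n = 4), or 19.8-fold lower, was rank 4 from the lowest. Slpi varied more than most genes here: 84.0% of all genes and features had an SD over the 4 arrays at or below its own, against 61.7% for Saa3, and the median SD was 0.87. On each of the 4 arrays Slpi was less negative than Saa3, by 1.57 (TAM-2R) to 3.04 (TAM-b).

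Lcn2 gave log2 ratios of 0.40 on TAM-b, -0.73 on TAM-2R, 2.95 on TAM-3 and 0.65 on TAM-8. These are 3 arrays above 0 and 1 below, and TAM-3 stood well above the others, at 7.71-fold. The mean of 0.82 ± 1.54 (SD, n = 4) was smaller than the SD. On the scale as deposited, before the arrays with exchanged channels were turned, Lcn2 was above 0 on all 4 arrays (0.73 on TAM-2R), while Saa3 (7.62 on TAM-2R as deposited) and Slpi (6.05) changed sign with the exchange of channels. On the arrays of LPS-treated cells Lcn2 changed sign with the channels as well (1.01 on TAM1 as deposited and -1.37 on TAM7).

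**Figure D1:**
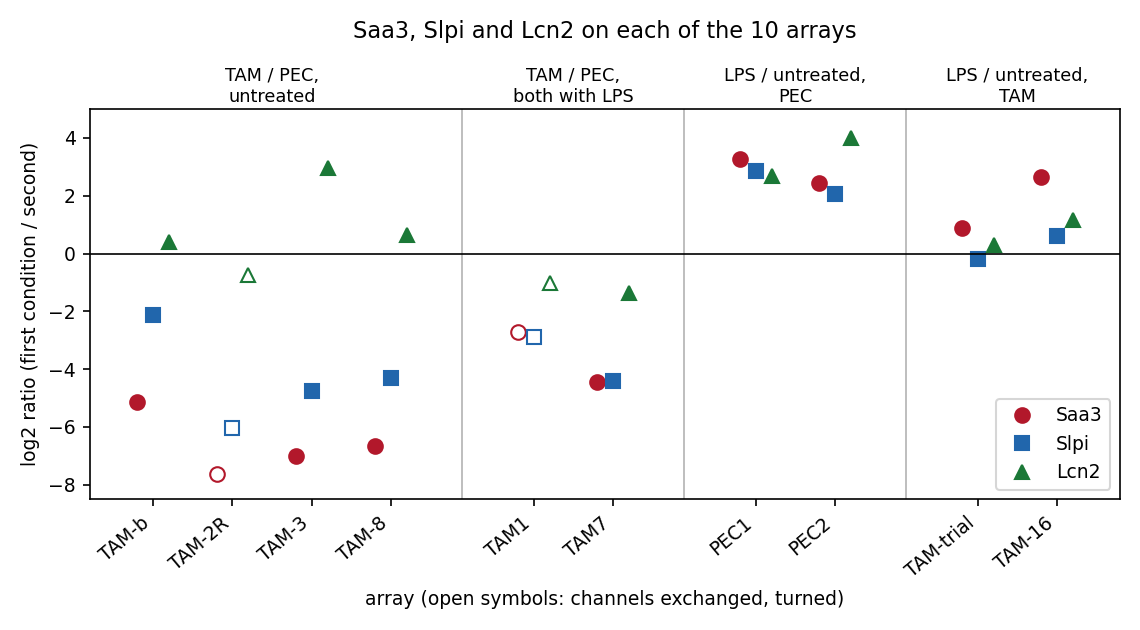
Log2 ratio of Saa3 (circles), Slpi (squares) and Lcn2 (triangles) on each of the 10 arrays, grouped by the conditions compared; open symbols are the 2 arrays with exchanged channels, shown after turning. Saa3 and Slpi lie below 0 on all 6 arrays of TAM against PEC and all 3 genes lie above 2 on both arrays of LPS in PEC.

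Some neutrophil markers peaked on the same untreated array as Lcn2. TAM-3, the array with the highest Lcn2 ratio, also had the highest ratios of Ngp (6.21), S100a9 (3.49), S100a8 (2.38), Camp (1.92) and Ltf (0.99) among the 4 untreated arrays. These genes encode neutrophil granule or calprotectin proteins. Of them, S100a9 (0.66) and Ltf (-0.39) were lowest on TAM-8, whereas Lcn2 was lowest on TAM-2R. The share of all genes and features that peaked on TAM-3 was not counted. The other 8 of the 13 measured neutrophil markers peaked on other arrays, among them Padi4 (5.58 on TAM-b and 3.40 on TAM-3) and Mmp9 (1.17 on TAM-2R), named after their values were seen. The whole list of 13 had a median of 0.97 on TAM-3, 0.84 on TAM-b, 0.29 on TAM-8 and 0.01 on TAM-2R, so the list and Lcn2 had their highest and lowest value on the same arrays. None of the 13 passed the test in untreated TAM against PEC: Ngp averaged 2.50 ± 2.56, S100a9 1.92 ± 1.29, Camp 1.01 ± 0.77 and S100a8 0.95 ± 1.23 (SD, n = 4). The part of neutrophils in the Lcn2 values was not tested.

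For Saa3 and Slpi, a list of peritoneal macrophage markers was read, which was written with both genes in it and with results known. Both were left out of its counts. Of its 11 other measured genes, 2 were called lower in untreated TAM and 0 higher, while 30 of all 8905 were called lower. The 2 were Fcna, a secreted ficolin (-5.23 ± 0.93), and Cd5l, a macrophage apoptosis inhibitor (-3.83 ± 1.95). By sign alone, 7 of the 11 were below 0 and 4 above. The list's median was -0.52, against -0.02 over all genes. Its array medians were -0.33 on TAM-b, -0.99 on TAM-2R, -1.58 on TAM-3 and -0.49 on TAM-8. Fcna and Cd5l were least negative on TAM-b, at -4.09 and -0.93, which was also the array with the smallest deficit of Saa3 and Slpi. The 18 general macrophage identity genes had a median of -0.53, close to that of the peritoneal list, with 11 below 0 and 7 above. Their array medians were -0.69 on TAM-b, 0.17 on TAM-2R, 0.13 on TAM-3 and -0.38 on TAM-8, and 0 of 18 passed the test. On TAM-2R and TAM-3, where that array median was above 0, Saa3 stood at -7.62 and -7.00. Adipocytes, another source of SAA3, were represented by 10 genes, of which Fabp4 (-3.34 ± 1.57) and Lpl (-3.85 ± 1.03) fell in untreated TAM, and the median was -0.43. Both genes are also expressed by macrophages. The 14 epithelial and mesothelial markers, a source of SLPI and LCN2, had a median of -0.14, and 0 rose or fell. Of 19 fibroblast genes Igfbp4 (2.20 ± 0.87) rose and 14 were above 0, with a median of 0.46 and array medians of 1.02 on TAM-b, 1.27 on TAM-2R, 0.08 on TAM-3 and 0.99 on TAM-8. The part of these cell types in the Saa3 and Slpi values was not tested.

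After LPS, PEC had more RNA of all 3 genes on both arrays, but none passed the test over all genes. In this comparison limma called 1 of 8905 genes and features, or 0.0112% (725 at an unadjusted p under 0.05). Saa3 was at 3.26 on PEC1 and 2.44 on PEC2, a mean of 2.85 ± 0.58 (SD, n = 2) or 7.22-fold higher, with a 95% interval of the limma fit from 1.34 to 4.37 and an adjusted p of 0.302. Slpi was at 2.86 and 2.06, a mean of 2.46 ± 0.57 or 5.5-fold higher (interval 0.70 to 4.23, adjusted p = 0.445). Lcn2 was at 2.68 and 3.98, a mean of 3.33 ± 0.92 or 10.1-fold higher (interval 1.67 to 4.99, adjusted p = 0.263). On each array all 3 genes were among the 163 highest of 8905, with Saa3 at rank 74 on PEC1 and Lcn2 at rank 62 on PEC2. The arrays did not order the genes alike, since Saa3 was the highest of the 3 on PEC1 and Lcn2 on PEC2. Both arrays had the same channel order, as had both arrays of LPS in TAM, so a dye effect particular to 1 feature cannot be told apart from the response.

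In TAM, the ratios after LPS were smaller and none passed the test. Limma called 0 of 8905 genes and features here, or 0%, with 497 at an unadjusted p under 0.05. Saa3 was at 0.89 on TAM-trial and 2.63 on TAM-16, a mean of 1.76 ± 1.24 (SD, n = 2) or 3.38-fold higher, with a limma interval from 0.24 to 3.28 and an adjusted p of 0.828. TAM-16 placed Saa3 at rank 23 from the highest, with a value between those of the PEC arrays, whereas TAM-trial placed it at rank 1617.5. Slpi was at -0.19 and 0.61, a mean of 0.21 ± 0.56 with an interval from -1.55 to 1.98 (adjusted p = 0.974). Its arrays lay on either side of 0. Lcn2 was at 0.30 and 1.15, a mean of 0.72 ± 0.60 with an interval from -0.93 to 2.38 (adjusted p = 0.922). For all 3 genes TAM-16 gave the higher value. It shares its print version with PEC2, and on these 2 arrays of 1 print the values in TAM and PEC were 2.63 and 2.44 for Saa3, 0.61 and 2.06 for Slpi and 1.15 and 3.98 for Lcn2. The 18 macrophage identity genes had a median of -0.78 in TAM with LPS, with 16 below 0 and 2 above, against -0.13 over all genes. Their median was -1.44 on TAM-trial and 0.17 on TAM-16. In PEC with LPS it was 0.735, with 3 below 0 and 15 above. The part of macrophage content in the LPS ratios was not tested.

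The difference between the LPS responses, TAM minus PEC, was tested as a contrast of its own. Limma called 0 of 8905 genes and features, or 0% (612 at an unadjusted p under 0.05). The difference was -1.09 for Saa3 (95% interval -3.24 to 1.05, adjusted p = 0.972), -2.25 for Slpi (-4.74 to 0.25, adjusted p = 0.758) and -2.61 for Lcn2 (-4.95 to -0.26, adjusted p = 0.719). For Slpi and Lcn2 the lower PEC array was above the higher TAM array, and for Saa3 TAM-16 lay between PEC1 and PEC2. With 2 arrays on each side such a separation says little, and its share over all genes was not counted. The Saa3 difference changed sign within the print of TAM-16 and PEC2, to 0.19, and with a dye term for each print, to 0.042. An equal response of TAM and PEC is thus within the interval for Saa3 and Slpi and, after adjustment, no difference was called for Lcn2. The macrophage identity genes had a median difference of -1.34, with 16 of 18 below 0, against -0.11 over all genes.

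**Figure D2:**
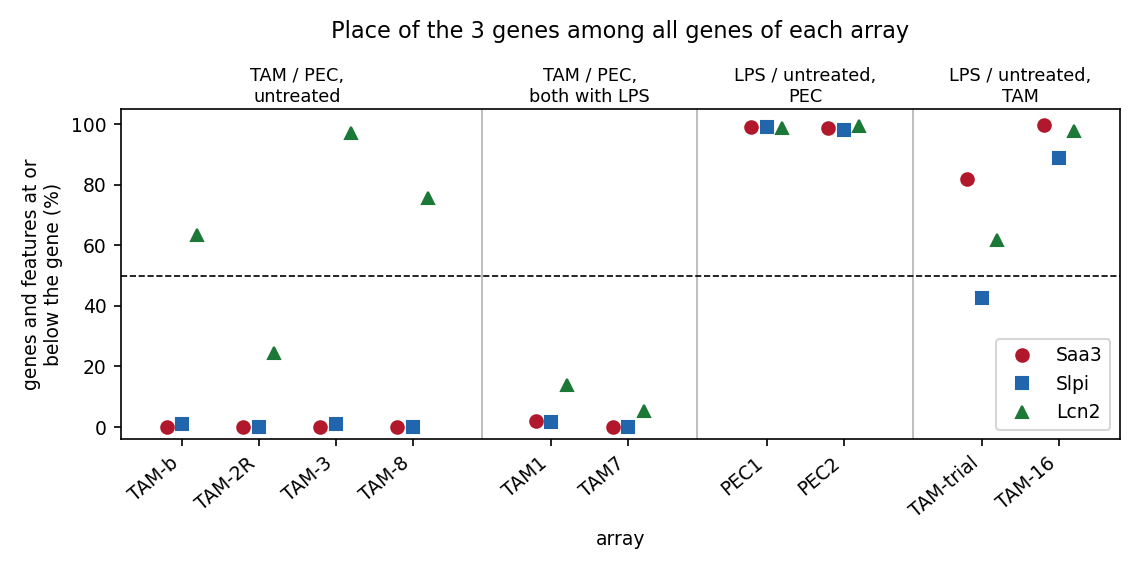
Place of Saa3, Slpi and Lcn2 among the 8905 genes and features of each array, as the percentage of them at or below the gene; the dashed line marks the middle of the ranking. All 3 genes are above 98% on both arrays of LPS in PEC, whereas on TAM-trial Slpi is at 42.64%, Lcn2 at 61.86% and Saa3 at 81.85%.

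With LPS in both populations, Saa3 and Slpi were again lower in TAM than in PEC on both arrays. Limma called 6 of 8905 genes and features, or 0.0674%, and none of the 3 genes was among them. Saa3 was at -2.70 on TAM1 and -4.43 on TAM7, a mean of -3.57 ± 1.22 (SD, n = 2) or 11.8-fold lower, with a limma interval from -5.08 to -2.05 and an adjusted p of 0.0921. Slpi was at -2.88 and -4.42, a mean of -3.65 ± 1.09 or 12.5-fold lower (interval -5.41 to -1.88, adjusted p = 0.156). Lcn2 was at -1.01 and -1.37, a mean of -1.19 ± 0.25 or 2.28-fold lower (interval -2.85 to 0.47, adjusted p = 0.765). On TAM7, Saa3 and Slpi were rank 9 and rank 10 from the lowest. Nothing in the sources used here shows that these arrays chose Saa3 and Slpi, but both were chosen with results of these data known. The comparisons may also share RNA. TAM1 and TAM7 have opposite channel orders. The limma call depended on the setting. Scaling the arrays to a common spread gave -4.40 for Saa3 (adjusted p = 0.0462) and -4.50 for Slpi (adjusted p = 0.0293), a dye term for each print gave -2.84 (adjusted p = 0.794) and -2.98 (adjusted p = 0.981), and leaving TAM-2R and TAM1 unturned gave -0.86 and -0.77 (adjusted p = 0.9999 for each). Between the LPS-treated cells the macrophage identity genes had a median of -1.03, with 12 of 18 below 0, against 0.08 over all genes. The 14 epithelial and mesothelial markers had a median of 0.62, with 12 above 0 and 2 below. None of these markers was called, and their part in the values of the 3 genes was not tested.

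The size of the Saa3 deficit was smaller with LPS than without it. Across all 6 arrays of TAM against PEC, Saa3 and Slpi were below 0 on 6 and Lcn2 on 3. The Saa3 values were -7.62 to -5.15 on the untreated arrays and -4.43 and -2.70 on the LPS arrays. Those of Slpi were -6.05 to -2.12, and -4.42 and -2.88. Lcn2 had 1 untreated array below 0, at -0.73, above both LPS arrays. Because the untreated arrays chose Saa3, this difference is a description.

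The 6 arrays outside the untreated comparison give a second route to untreated TAM against PEC, namely TAM against PEC with LPS, minus the response of TAM, plus that of PEC. For Saa3 this route gave -2.47 (standard error 1.04, 95% interval -4.96 to 0.01), for Slpi -1.40 (interval -3.45 to 0.65) and for Lcn2 1.41 (interval -0.45 to 3.28), each with a limma adjusted p of 0.977. Its sign matched that of the direct mean for each of the 3 genes. Limma called 0 of 8905 on this route, or 0%, with 264 at an unadjusted p under 0.05. The direct mean minus the value of the second route was -4.14 for Saa3 (95% interval -6.97 to -1.30), -2.91 for Slpi (-6.21 to 0.40) and -0.60 for Lcn2 (-3.70 to 2.50). A loop of 4 comparisons on 1 scale should sum to 0, and 0 of 8905 genes and features (0%) were called for this sum (238 at an unadjusted p under 0.05). Since the untreated arrays chose Saa3 and Slpi, the gap is given with no test for them.

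**Figure D3:**
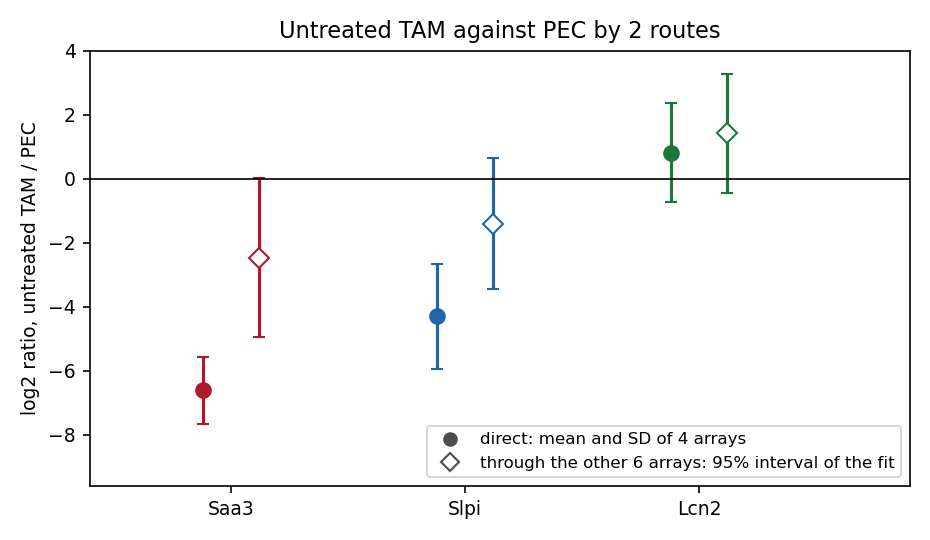
Log2 ratio of untreated TAM to untreated PEC for each gene, measured directly (filled circles, mean and SD of 4 arrays) and through the other 6 arrays (open diamonds, 95% interval of the limma fit). Both routes lie below 0 for Saa3 and Slpi, at -6.61 and -2.47 and at -4.31 and -1.40, and above 0 for Lcn2, at 0.82 and 1.41.

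The same loop orders the 4 conditions relative to untreated PEC. For Saa3, PEC with LPS stood at 2.85 and untreated TAM at -6.61, while TAM with LPS stood at -4.85 when reached through untreated TAM (95% interval -6.71 to -2.99) and at -0.72 when reached through PEC with LPS (-2.86 to 1.43). For Slpi, PEC with LPS stood at 2.46 and untreated TAM at -4.31, and TAM with LPS at -4.10 (-6.26 to -1.93) or -1.19 (-3.69 to 1.31). By either route the order for Saa3 and Slpi was PEC with LPS, untreated PEC, TAM with LPS and untreated TAM. For Slpi, TAM with LPS and untreated TAM did not differ beyond their spread. For Saa3 and Slpi, the interval between untreated PEC and TAM with LPS held 0 by the route through PEC with LPS. The route through untreated TAM draws on the untreated arrays that chose both genes. Its values and intervals are therefore a description and not a test. For Lcn2 the order was PEC with LPS (3.33), TAM with LPS (1.54 or 2.14), untreated TAM (0.82) and untreated PEC. No neighbours in this order differed beyond their spread: the 95% intervals of both tested steps held 0, and the mean of untreated TAM against PEC was smaller than its SD.

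Saa3 and Slpi followed each other across the arrays, with a Pearson correlation of 0.95 and a Spearman correlation of 0.93 over the 10 arrays. Lcn2 followed them less closely, at 0.44 and 0.30 with Saa3 and at 0.59 and 0.48 with Slpi. These correlations describe 10 arrays that fall into 4 comparisons and are given with no test. The genes most like Saa3 by Pearson correlation were Plek, a protein kinase C substrate of blood cells (0.97), Pigw (0.96), Slpi (0.95), Retnla, a secreted protein of alternatively activated macrophages (0.95), and Fcna (0.94). Those most like Slpi were Tle5 (0.99), Retnla (0.98), Fcna (0.98), Saa3 (0.95) and the inflammatory caspase Casp4 (0.95). Retnla averaged -5.06 in untreated TAM against PEC, 1.76 in PEC with LPS, -1.01 in TAM with LPS and -4.14 between the LPS-treated cells. It shares with Slpi the deficit in TAM under both treatments, and Casp4 has the pattern without the size, from -0.42 to 0.94. Lcn2 was most like Rac2, a small GTPase of the phagocyte oxidase (0.95), the nuclease Trex1 (0.95), Il1b, which encodes the cytokine interleukin-1 beta (0.94), Ciao2b (0.93) and Ist1 (0.93). No gene was among the 5 most like Lcn2 and also among those of Saa3 or Slpi. With Spearman correlation, 1 of the 5 genes remained for Saa3, 3 for Slpi and 3 for Lcn2.

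**Figure D4:**
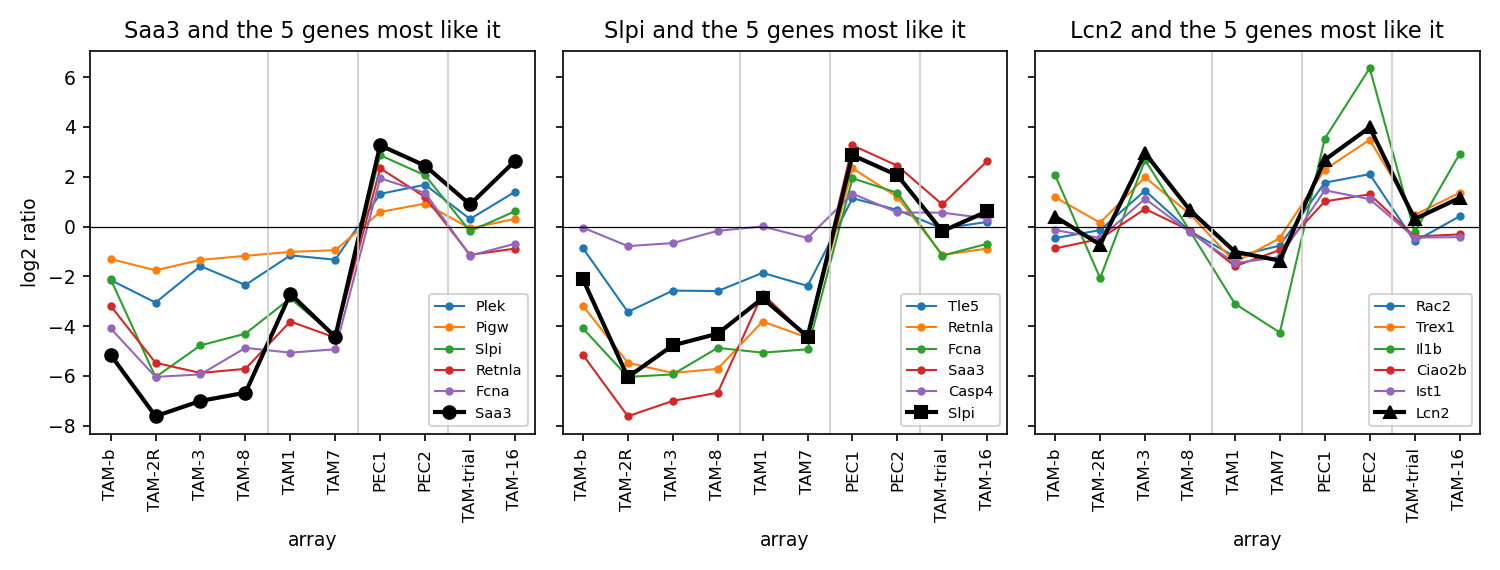
Log2 ratios on the 10 arrays of each of the 3 genes (black) and of the 5 genes with the highest Pearson correlation with it (colours); lines only join the arrays, whose order within a comparison has no meaning, and vertical lines part the comparisons. Saa3 and Slpi share the low values on the 6 arrays of TAM against PEC, and the Lcn2 group peaks on PEC2 and on TAM-3.

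Of the other acute phase genes, the metallothioneins Mt1 and Mt2, which bind zinc and copper, had ratios in PEC with LPS as large as those of the 3 genes, at 3.44 ± 0.22 and 3.58 ± 0.10 (SD, n = 2), and were chosen for mention after their values were seen. Of 20 other acute phase genes measured, 0 passed the test in any of the 4 comparisons, and their median was -0.20 in untreated TAM against PEC, -0.14 in PEC with LPS, -0.06 in TAM with LPS and 0.21 between LPS-treated TAM and PEC. The medians over all genes were -0.02, -0.04, -0.13 and 0.08. The 21 other antimicrobial genes had medians of -0.07, 0.82, -0.29 and -1.12, and Fcna was the only gene called among them, lower in TAM with both treatments (-5.23 ± 0.93, n = 4, and -5.00 ± 0.10, n = 2, limma adjusted p = 0.00042 and 0.00754). Among the 23 other protease inhibitors, the functional class of SLPI, 0 were called in any comparison, with medians of -0.31, 0.15, -0.15 and -0.05. Among 15 other lipocalins and fatty acid binding proteins, the family of LCN2, Fabp4 (-3.34 ± 1.57) and Fabp5 (-2.93 ± 1.39) fell in untreated TAM and 0 were called elsewhere. These carry fatty acids in macrophages and fat cells. Of 15 iron genes 0 were called, with a median of -0.12 in untreated TAM.

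Of 17 apolipoprotein and lipoprotein genes, the partners of SAA proteins on high-density lipoprotein, Pltp, the phospholipid transfer protein (-3.05 ± 0.48), and Lpl, lipoprotein lipase (-3.85 ± 1.03), fell in untreated TAM. Pltp was also lower between the LPS-treated cells (-4.05 ± 0.17, n = 2, limma adjusted p = 0.00754). Of the 15 receptors and partners of the 3 proteins, 0 were called. Grn, the progranulin that SLPI protects, was at 0.52 ± 0.84 in untreated TAM against PEC and 1.47 ± 0.05 in PEC with LPS. Mmp9, the gelatinase that binds LCN2, was at 0.82 ± 0.30, and Slc22a17, a proposed LCN2 receptor, at 0.86 ± 0.51 in untreated TAM.

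The genes of the signals that induce the 3 proteins were mostly higher in PEC with LPS, although 0 of 27 passed the test in any comparison. Their median was -0.37 in untreated TAM against PEC, 0.96 in PEC with LPS, 0.12 in TAM with LPS and -0.59 between the LPS-treated cells. Of the 27, 5 (Il1b, Tnf, Socs3, Nfkbia and Relb) belong to the genes that set the direction of the ratios, so their sign in PEC with LPS is no result. Of the 22 without them, 17 were above 0 in PEC with LPS, with a median of 0.35, and 16 were below 0 between LPS-treated TAM and PEC, with a median of -0.37. Of all genes and features, 48.1% were at or above 0 and 44.2% below 0 in these comparisons. The cytokine gene Il1b was at 4.94 ± 2.002 in PEC with LPS, 1.34 ± 2.22 in TAM with LPS and -3.68 ± 0.82 between the LPS-treated cells (SD, n = 2 each). The same 3 values were 3.58 ± 1.94, 1.84 ± 0.56 and -2.97 ± 1.15 for Tnf, the tumour necrosis factor gene. They were 3.71 ± 1.59, 1.62 ± 1.13 and -2.54 ± 0.30 for Socs3, a feedback inhibitor of STAT3 signalling, and 3.01 ± 0.98, 0.82 ± 1.14 and -1.995 ± 0.286 for Nfkbia, the NF-kB inhibitor. In TAM with LPS and between the LPS-treated cells, the means of these 4 genes had the signs of that of Saa3. In untreated TAM against PEC the values were 0.62 ± 2.17 for Il1b, -1.15 ± 0.68 for Tnf, -0.79 ± 2.05 for Socs3 and -0.78 ± 1.30 for Nfkbia, far from the -6.61 of Saa3. Stat3 itself was at 1.43 ± 0.86 in PEC and 1.75 ± 0.46 in TAM with LPS, and Cebpd, a C/EBP factor, at -0.09 ± 0.14 and -0.39 ± 0.32.

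**Figure D5:**
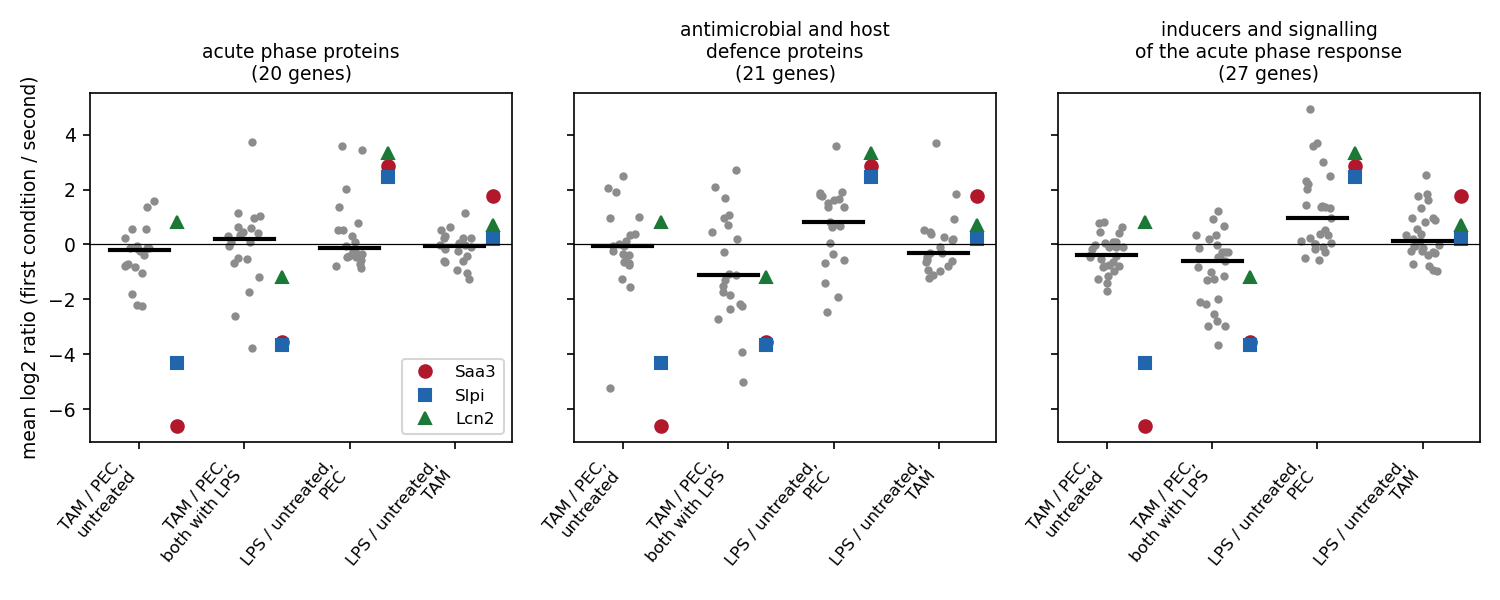
Mean log2 ratio of each measured gene (grey points; black bar, median of the list) of 3 lists in the 4 comparisons, beside Saa3, Slpi and Lcn2 (coloured symbols, not counted in the medians). The 20 acute phase genes have medians from -0.20 to 0.21, whereas the 27 inducer and signalling genes have medians of 0.96 in PEC with LPS and -0.59 between the LPS-treated cells.

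Of the 18 measured genes nearest to the 3 on the chromosomes, 3 on each side, 0 passed the test in untreated TAM against PEC. They ranged from -2.46 (Ak1, near Lcn2) and -2.09 (Kcnc1, near Saa3) to 0.29 (Rims4). The nearest measured genes of Saa3 were Tph1 (-0.35) and Gtf2h1 (-0.34), those of Slpi were Wfdc15b (-0.94), of the same protein family, and Matn4 (-0.14), and those of Lcn2 were Ciz1 (-0.16) and Slc25a25 (-0.63). These genes were taken by position in RefSeq after the values of the 3 genes were known. Features at the same place as the 3 genes in groups of 96 consecutive feature numbers, 99 for each gene, had medians between -0.39 and 0.33 on the 10 arrays.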

How the data were processed

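The 10 arrays were 2-colour cDNA arrays of mouse RNA. The values the authors deposited are log ratios, 1 for each feature of an array, and are read here as log2. Dyes, log base, background correction and normalization are not stated in the sources used here. Base 2 was inferred, because the values reach 11.687 in size and on a natural log scale such a ratio would exceed the range of a scanner channel. Dim features could not be filtered, since channel signals were not used here. The labels name 3 print versions of the array, with PEC1 on v1p1, TAM-trial, TAM7 and TAM-8 on v9p2 and the other 6 on v3p6.

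Values were read as channel 2 over channel 1, per the labels, and TAM-2R and TAM1, with exchanged channels, were turned. A list of 34 measured LPS genes without Saa3, Slpi and Lcn2, whose pooled median on the PEC arrays was 1.85, set the direction. Of 9596 features, 7486 had 1 gene symbol, 483 several and 1627 none; features of 1 gene were averaged, and 0 values were missing. Limma 3.58.1 in R 4.3.3 (lmFit, eBayes) was fitted on all 10 arrays with 1 mean for each of the 4 comparisons (6 residual and 3.841 prior degrees of freedom); the second route to untreated TAM against PEC was fitted on the other 6 arrays. P-values were two-sided and adjusted over 8905 genes and features, with a threshold of 0.05. The 4 comparisons may share RNA, which the sources used here do not say. The fit was tested on simulated data. Motifs, tables and figures were made in Python 3.11.15.

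The 3 genes and all gene lists were chosen with earlier results of these data known. Other named genes were those past the threshold in a list, the 5 genes most like each of the 3 by Pearson correlation, a panel of inducers, neutrophil genes and partners given where measured, and neighbours by position. Alternatives were the channel order, centring, scaling, dye and print terms, a loop fit, single features, feature place and leaving out each array.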

Additional observations from a re-analysis of the deposited data

Results flagged for a closer look

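Grn, the progranulin gene, was at -0.73 on TAM-b in untreated TAM against PEC, while the other 3 arrays of that comparison lay between 0.81 and 1.08. The gap was 0.85 of the whole range of the 4 arrays, which marks TAM-b as far from the others. Chance marks about 1 in 20 groups in this way.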

How the results depend on the processing

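Over the 21 results on Saa3, Slpi and Lcn2, 417 values were recomputed under other settings: 8 changed sign and 4 passed the threshold newly. A further 2, both in untreated TAM against PEC, moved by more than the SD between its arrays. The other 403 were counted as unchanged, but movement against the SD was judged only in that comparison. Elsewhere a value counted as unchanged could move further than its SD. Saa3 between the LPS-treated cells, for example, went from -3.57 ± 1.22 to -0.86 without turning. Values in untreated TAM against PEC have no test, so for them a threshold was not applied. The cause of these changes was not tested, except where arrays were left out or the sign of arrays was changed. Not turning TAM-2R and TAM1 gave -2.80 for Saa3 and -1.29 for Slpi in untreated TAM against PEC, and 0.228 and 1.478 on the second route. In TAM with LPS, Slpi was at -0.18 with a dye term. Between the LPS-treated cells, Saa3 and Slpi passed after scaling (-4.40 and -4.50) and in the loop fit (-4.72 and -4.51). The loop fit draws on the untreated arrays that chose both genes, so its values are not independent of that choice. The Saa3 difference in LPS response was 0.042 with a dye term per print, 1.22 in the loop fit and 0.19 within print v3p6.

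Counts of called genes moved more. In untreated TAM against PEC they were 0 without turning (744 at an unadjusted p under 0.05), 12 after scaling, 17 with a dye term, 4 with a dye term per print, 26 in the loop fit, 0 within print v3p6 (513) and 2 on the comparison's own arrays. In PEC with LPS they were 2 without turning, 3 after scaling, 56 with a dye term per print, and 0 in the loop fit (588), within print v3p6 (299) and on the own arrays (1120). In TAM with LPS scaling gave 1. Between the LPS-treated cells they were 0 without turning (140), 81 after scaling, 0 with a dye term per print (374), 131 in the loop fit, 14 with the print as a random block, and 0 within print v3p6 (294) and on the own arrays (1087).

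Leaving out each array in turn gave 6 to 24 genes in untreated TAM against PEC (6 without TAM-8), 1 to 85 in PEC with LPS (85 without PEC1, 48 without PEC2), 0 to 3 in TAM with LPS and 3 to 11 between the LPS-treated cells. A lone array was then assumed to vary like the others. Saa3 in untreated TAM ranged from -7.10 to -6.28, Slpi from -5.04 to -3.73 and Lcn2 from 0.11 to 1.33. Slpi in TAM with LPS ranged from -0.19 (without TAM-16) to 0.61, and the Lcn2 gap between the routes from -1.31 to 0.055 (without PEC2). The feature place setting was chosen after seeing the data and changed no call or sign of the 3 genes. The loop fit and the own-array fit give no second route. Each ratio already sets 2 conditions against each other on 1 array. Arrays of different comparisons were not paired with each other, because the comparisons share fewer than 2 replicate numbers. With no channel signals, how far each ratio lies above background is unknown, and 2 arrays in 3 of the 4 comparisons limit the precision.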
